A study of Mus musculus with 6 samples.

Results

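The genes described here are 10 genes of neutrophils and of granulocytic suppressor cells, taken by exact symbol from the 26167 genes of the deposited tables: S100a8, S100a9, Csf3r, Csf3, Retnlg, Ngp, Camp, Hdc, Clec4d, and Trem1. All 10 were found, and 8 of them had enough reads to be tested. They were measured in Hepa1-6 tumors (Hep1-6 in the labels), which grow from a mouse hepatoma cell line injected under the skin of female C57BL/6J mice (6 to 8 weeks old). Sorafenib (Sora), an inhibitor of several kinases, was given ip at 10 mg/kg, first on day 9 after tumor cell injection and then on days 11, 13, and 15. What the control mice received, and the day on which these tumors were taken, are not given in the sources used here. RNA-seq libraries were made from 3 control tumors, numbered 1, 3, and 4 in the labels, and 3 Sora-treated tumors, numbered 2, 3, and 4. The labels do not state that the tumors came from separate mice, so the p-values measure the spread between these tumors.

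Neutrophils are short-lived granulocytes that are made in the bone marrow under the growth factor G-CSF, which is encoded by Csf3 and acts on the receptor encoded by Csf3r. Their granule proteins are made in sequence: those of the cathelicidin family, such as Ngp and Camp, belong to precursor cells, whereas S100a8, S100a9, Retnlg, and Csf3r are strongly expressed in mature cells. In tumors, granulocytes that suppress T cells are called granulocytic myeloid-derived suppressor cells, and they share most of these genes with other neutrophils. Several of the 10 genes are also known from other cells: S100a8 and S100a9 from monocytes and stressed keratinocytes, Hdc from mast cells and basophils, and Clec4d and Trem1 from monocytes and macrophages.

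Levels are given as FPKM, the reads of a gene scaled to its length and to the total of the library, so that genes can be compared with each other. Differences were tested on the counts by the quasi-likelihood method of edgeR, with p-values adjusted over 16513 genes by Benjamini-Hochberg, and a log2 fold change above 0 means a higher level in Sora-treated tumors. The tumors had between 31073830 and 36205814 counted reads each. The count table holds 5 of the 6 tumors, and the counts of Sora-treated tumor 4 were recovered from its FPKM. The hepatoma marker Afp was high in every tumor (655 to 1000.5 CPM, counts scaled to library size by TMM and not to gene length), whereas the plasma protein genes Apoh and Ahsg had 9 reads or fewer in each.

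S100a9, Hdc, and Clec4d were up-regulated in Sora-treated tumors, and none of the 8 tested genes was down-regulated. The 3 genes are 37.5% of the 8 tested, and 1.94% of all genes tested were called in this direction. S100a9 and Hdc also passed the limit of a 2-fold change, as 0.418% of all genes did. For the lower direction, edgeR, DESeq2, and limma voom each called 0 of the genes (beside 1.34%, 3.71%, and 1.4% of all genes), and 0 had an unadjusted p under 0.05 in edgeR. Over the 8 genes the median log2 fold change was 0.88, beside 0.00 over all genes tested, and 7 of the 8 were above 0, as 49.9% of all genes were. In 4 of them, S100a9, Csf3r, Hdc, and Clec4d, every Sora-treated tumor lay above every control tumor, which was so for 10.6% of all genes tested. None of the 8 showed the opposite order (11.6% of all genes tested), and 0 were called lower in edgeR with a change over 2-fold (0.333%). In bulk tumors, more cells of one type and more RNA per cell cannot be told apart. By flow cytometry, the paper reports that Sora at the same dose left neutrophils among tumor-infiltrating leukocytes unchanged in this tumor model. The paper does not state whether the tumors used for flow cytometry were those sequenced. Whether the higher levels here came with more neutrophils was not tested.

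**Figure D1:**
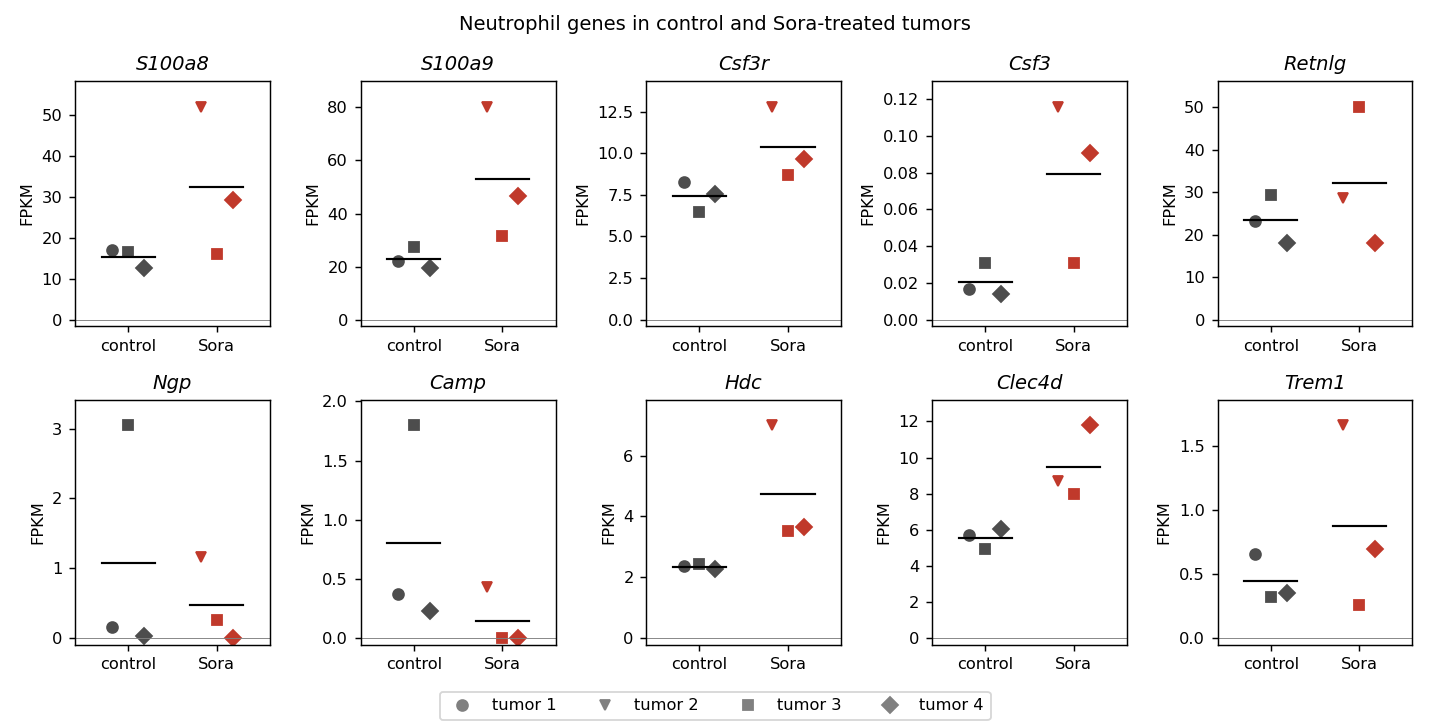
FPKM (linear axes) of the 10 genes in 3 control tumors (gray) and 3 Sora-treated tumors (red), where each symbol is 1 tumor, its shape gives the tumor number, and the line is the mean of the group. Sora-treated tumor 2 is highest for 6 of the 10 genes, Sora-treated tumor 3 for Retnlg, Sora-treated tumor 4 for Clec4d, and control tumor 3 for Ngp and Camp.

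These calls rested on few tumors. Leaving out any 1 tumor other than Sora-treated tumor 3 ended all 3 calls (5 of the 6 fits, adjusted p from 0.055 to 0.16, edgeR). All genes were then called less often too, 0.705% without control tumor 1, 1.28% without control tumor 3, 0.717% without control tumor 4, and 0.509% without Sora-treated tumor 2. The fit without Sora-treated tumor 4 uses only deposited counts and called 0.0245% of all genes in the higher direction. Without Sora-treated tumor 3, S100a8 and Csf3r were called as well, so that 5 genes were up-regulated (adjusted p from 0.0049 to 0.017, edgeR), beside 3.52% of all genes. Over the 6 fits, the log2 fold change ranged from 0.79 to 1.48 for S100a9, 0.63 to 1.19 for Hdc, and 0.58 to 0.9 for Clec4d. DESeq2 called Csf3r, Hdc, and Clec4d, beside 4.0% of its genes, and limma voom called Clec4d alone, beside 1.79%. Among the other settings of edgeR, S100a9, Hdc, and Clec4d were called with DESeq2's size factors (1.93% of all genes), with upper quartile scaling (1.99%), and with at least 10 counts required in every tumor (2.27%). Scaling by total counts called S100a9 and Clec4d (1.88%), robust=TRUE called Clec4d (2.18%), and dropping the filter on low counts called 5 genes (2.26%). Blocking on the tumor number called 0 of 8 tested genes (0.484%). Numbers 1 and 2 each occur in 1 group only, so this fit compares only the tumors numbered 3 and 4. Limma called 0 of the 6 tested on log2(FPKM + 1) (1.11%) and on log2(FPKM + 0.1) (0.171%), and 0 of 10 on log2(FPKM + 1) without a filter (0.0%).

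**Figure D2:**
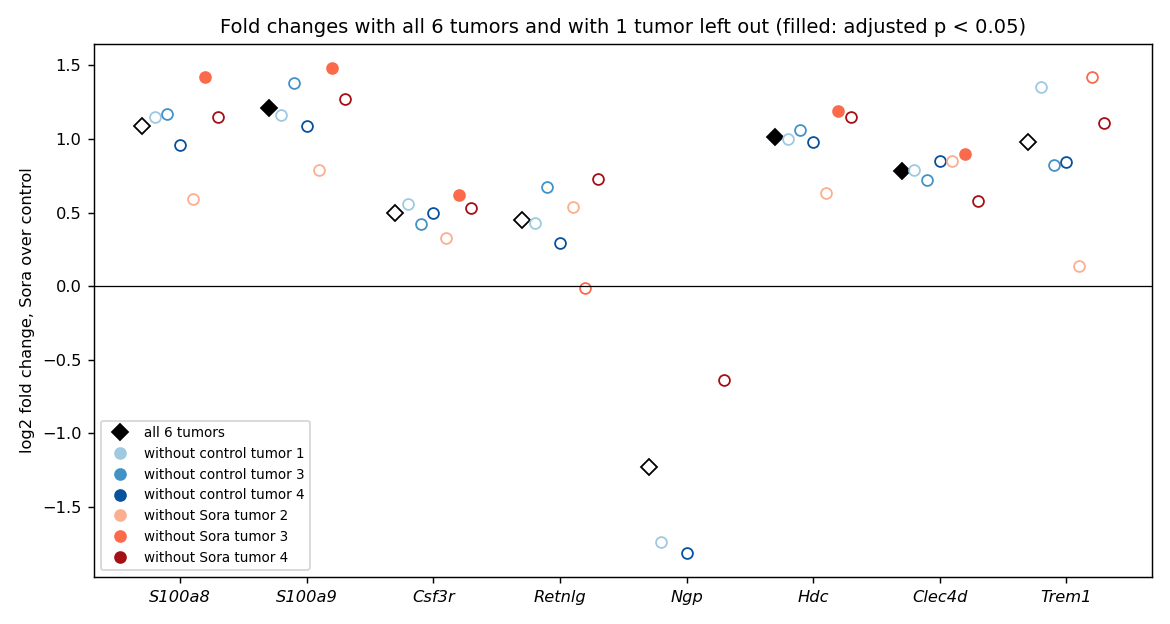
Log2 fold change (Sora-treated over control) of the 8 tested genes with all 6 tumors (diamonds) and with 1 tumor left out (circles, 1 color per tumor), where filled symbols have an adjusted p under 0.05 in edgeR. Filled circles appear only for the fit without Sora-treated tumor 3, where 5 genes are called, and Ngp could be tested in 3 of these fits.

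S100a8 and S100a9 encode the 2 subunits of calprotectin, a calcium-binding alarmin that fills the cytosol of neutrophils. In GRCm38.p6, S100a8 spans 90669071 to 90670034 of chromosome 3, and S100a9 lies 22.6 kb further on, at 90692630 to 90695721. S100a9 had 22.1, 27.5, and 19.4 FPKM in control tumors 1, 3, and 4 and 80.3, 31.5, and 46.7 FPKM in Sora-treated tumors 2, 3, and 4. All Sora-treated tumors were higher, with tumor 3 close to the highest control. S100a9 rose 2.31-fold (log2 fold change 1.21, standard error 0.28, adjusted p = 0.042, edgeR), and the log2 value became 0.79 when Sora-treated tumor 2 was left out and 1.48 when tumor 3 was. S100a8 had 17.0, 16.4, and 12.5 FPKM in the control tumors and 52.0, 16.1, and 29.1 FPKM in the Sora-treated tumors. Here Sora-treated tumor 3 lay within the control tumors, and the log2 fold change of 1.09 did not pass the test (standard error 0.33, adjusted p = 0.11, edgeR). The ratio of S100a9 to S100a8 in FPKM varied far less than either level, with 1.3, 1.68, and 1.55 in the control tumors and 1.54, 1.95, and 1.61 in the Sora-treated tumors. It was 1.51 ± 0.191 and 1.7 ± 0.22 (SD, n = 3), and the groups overlapped.

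To set the starts of these genes beside their levels, the 250 bases before the start were read from RefSeq's promoters of GRCm38.p6, which matched 9 of the 10 genes, all but Csf3. The start is the one that table uses for each gene. For Hdc, Csf3r, and Trem1 it lies inside the full span of the gene given here, so their windows reach into that span and are not printed. Shown are S100a9 and Clec4d, which were called, and S100a8, the partner of S100a9, 5′ to 3′ on the strand of the gene. Capitals mark matches, on either strand, to motifs of 5 factors or elements. The letters searched were GAGGAA for PU.1, a factor of myeloid cells, and TTGCNNAA for C/EBP, the family that drives granulocyte genes. They were TGANTCA for AP-1 and TTCNNNGAA for STAT, which act downstream of cytokines, and TATAAA for the TATA box, where transcription is set up. The windows are chr3:90668821-90669070 on the plus strand for S100a8, chr3:90695722-90695971 on the minus strand for S100a9, and chr6:123261857-123262106 on the plus strand for Clec4d.
S100a8: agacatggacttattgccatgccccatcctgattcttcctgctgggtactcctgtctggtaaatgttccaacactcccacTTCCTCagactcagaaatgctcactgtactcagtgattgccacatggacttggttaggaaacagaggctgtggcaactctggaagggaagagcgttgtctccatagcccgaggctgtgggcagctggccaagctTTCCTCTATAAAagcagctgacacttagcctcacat
S100a9: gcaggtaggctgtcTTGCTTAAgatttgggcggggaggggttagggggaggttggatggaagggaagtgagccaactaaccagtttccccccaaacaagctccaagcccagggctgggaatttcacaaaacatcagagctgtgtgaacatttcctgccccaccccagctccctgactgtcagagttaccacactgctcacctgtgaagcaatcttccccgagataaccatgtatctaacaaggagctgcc
Clec4d: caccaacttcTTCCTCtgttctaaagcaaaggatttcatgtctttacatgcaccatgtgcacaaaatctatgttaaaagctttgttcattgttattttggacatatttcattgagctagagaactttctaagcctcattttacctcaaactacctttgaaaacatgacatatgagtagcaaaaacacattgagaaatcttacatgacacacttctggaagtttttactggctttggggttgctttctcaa
S100a8 had a PU.1 match 36 bases before the start, directly followed by a TATA box match at 30 bases, and another PU.1 match at 170 bases. S100a9 had 1 C/EBP match at 236 bases, and Clec4d had 1 PU.1 match at 240 bases. Of the 9 genes, 4 held a PU.1 match (S100a8, Csf3r, Clec4d, and Trem1), as 23.3% of 32851 promoters did, and 3 held a C/EBP match (S100a9, Retnlg, and Ngp), as 9.56% did. A TATA box match was in 1 of the 9 (12.4% of promoters), a STAT match in 1 (Trem1, 7.02%), and an AP-1 match in 0 (6.75%). The PU.1 letters can share bases with the STAT letters, and in these windows they did not overlap. A match is a run of letters and not a measured site.

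Csf3r encodes the G-CSF receptor and is on chromosome 4 (126023441 to 126044975). It had 8.28, 6.46, and 7.53 FPKM in the control tumors and 12.8, 8.67, and 9.63 FPKM in the Sora-treated tumors. The groups did not overlap, although Sora-treated tumor 3 was close to control tumor 1. The 1.41-fold difference (log2 value 0.50, standard error 0.13) missed the threshold in edgeR (adjusted p = 0.072) and passed it in DESeq2 (adjusted p = 0.0069). Its ligand gene Csf3, on chromosome 11 (98700183 to 98703631), was near the limit of detection and was not tested. It had 1, 2, and 1 reads in the control tumors and 7, 2, and 6 reads in the Sora-treated tumors, with tumor 3 again at a control value. Per counted read, the 15 reads of the Sora-treated group were 3.84 times the 4 reads of the control group (exact 95% interval 1.22 to 15.9, which covers counting error only).

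Hdc encodes histidine decarboxylase, the enzyme that makes histamine, and is on chromosome 2 (126593659 to 126624025). It had 2.36, 2.44, and 2.26 FPKM in the control tumors, the narrowest spread of the 10 genes relative to the mean, and 7.0, 3.51, and 3.65 FPKM in the Sora-treated tumors. Every Sora-treated tumor was above the controls, and tumor 2 stood far above the other two. Hdc rose 2.02-fold (log2 fold change 1.01, standard error 0.24, adjusted p = 0.046, edgeR), and leaving out Sora-treated tumor 2 gave a log2 value of 0.63. The genes for histamine transport, breakdown, and reception did not pass the test (0 of 5 tested in edgeR, DESeq2, or limma voom, 0 at an unadjusted p under 0.05). The highest of them, the histamine receptor gene Hrh2, had 4.02 to 6.59 CPM over the 6 tumors (log2 fold change -0.12).

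Clec4d, a C-type lectin receptor of myeloid cells on chromosome 6 (123262107 to 123275268), had 5.72, 4.94, and 6.06 FPKM in the control tumors and 8.7, 7.97, and 11.8 FPKM in the Sora-treated tumors. The groups were clearly apart, and tumor 4 was the highest. Clec4d rose 1.72-fold (log2 fold change 0.78, standard error 0.17, adjusted p = 0.038, edgeR), the smallest p of the 8 tested genes. Trem1, an activating receptor of neutrophils and monocytes on chromosome 17 (48232713 to 48246927), had 0.656, 0.324, and 0.352 FPKM in the control tumors and 1.66, 0.259, and 0.691 FPKM in the Sora-treated tumors. Sora-treated tumor 3 was the lowest of the 6 tumors and tumor 2 was the highest, and the difference did not pass the test (log2 fold change 0.98, standard error 0.55, adjusted p = 0.4, edgeR). Its log2 value was 0.14 when Sora-treated tumor 2 was left out and 1.42 when tumor 3 was.

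Retnlg, a secreted resistin-like protein of mature neutrophils on chromosome 16 (48872608 to 48874498), did not follow S100a8, S100a9, and Trem1 across the tumors. It had 23.1, 29.4, and 18 FPKM in the control tumors and 28.5, 50.1, and 18.1 FPKM in the Sora-treated tumors. The groups overlapped, and the highest tumor was Sora-treated tumor 3, the tumor in which S100a8 lay within and Trem1 below the control tumors. The difference did not pass the test (log2 value 0.45, standard error 0.30, adjusted p = 0.48, edgeR), and it was -0.01 without that tumor.

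Ngp and Camp encode neutrophilic granule protein and the cathelicidin CRAMP, and both are on chromosome 9 (110419808 to 110423012 and 109847377 to 109849456). Ngp had 6, 118, and 1 reads in the control tumors and 42, 10, and 0 reads in the Sora-treated tumors. Camp had 7, 36, and 5 reads in the control tumors and 8, 0, and 0 reads in the Sora-treated tumors. Both were highest in control tumor 3 and next in Sora-treated tumor 2, and the groups overlapped. A count of 0 allows up to 3 reads, or, on the library total without TMM scaling, 0.088 CPM in Sora-treated tumor 4 and 0.09 CPM in tumor 3. Ngp passed the filter through control tumor 3 and Sora-treated tumors 2 and 3, and its log2 value was -1.23 (standard error 1.29, adjusted p = 0.69, edgeR). Camp was not tested. Per counted read, the 52 reads of Ngp in the Sora-treated group were 0.426 times the 125 reads in the control group (exact 95% interval 0.302 to 0.593). For Camp, 8 reads against 48 gave a ratio of 0.171 (exact 95% interval 0.0697 to 0.364). These intervals cover counting error only, and control tumor 3 held 118 of the 125 and 36 of the 48 control reads.

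Ordered by mean FPKM over the 6 tumors, the genes ran from S100a9 (37.9), Retnlg (27.9), and S100a8 (23.8) through Csf3r (8.9), Clec4d (7.53), and Hdc (3.54) to Ngp (0.777), Trem1 (0.657), Camp (0.473), and Csf3 (0.0499). Within the groups the order differed: in the control tumors the mean of Retnlg (23.5) was above that of S100a9 (23.0), and in the Sora-treated tumors S100a8 (32.4) was above Retnlg (32.2) and Trem1 (0.870) above Ngp (0.474). The place of Ngp above Trem1 rests on control tumor 3 (3.05 FPKM of Ngp). Between neighbors in the order over all tumors, the ranges of S100a8 and Csf3r did not overlap in either group, nor did those of Clec4d and Hdc. S100a9 and Retnlg overlapped in both groups, as did Ngp and Trem1, and Trem1 and Camp. Retnlg was above S100a8 in all 3 control tumors and in 1 of the 3 Sora-treated tumors. Control tumor 4 was the lowest tumor for 5 of the 10 genes.

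Other genes of mature neutrophils were examined with a list of 20 genes, of which 19 were tested. Lrg1, Hcar2, G0s2, Hp, Mxd1, and Cd300lf were up-regulated, 0 were down-regulated (0 also in DESeq2 and limma voom, and 0 at an unadjusted p under 0.05), and 13 were not called in edgeR. The median log2 fold change was 0.65, and 17 of the 19 were above 0. In CPM, Lrg1, a leucine-rich glycoprotein of neutrophil granules and of liver, had 7.88, 5.8, and 7.02 in the control tumors and 15.1, 12.9, and 12.0 in the Sora-treated tumors (log2 fold change 0.95, adjusted p = 0.014, edgeR). Hcar2, a receptor for hydroxy acids, had 19.2 to 24.9 CPM in the control tumors and 43.5, 27.8, and 47.6 CPM in the Sora-treated tumors (log2 fold change 0.89, adjusted p = 0.026, edgeR). G0s2, an inhibitor of lipolysis, and Hp, haptoglobin, had log2 fold changes of 0.89 and 0.76. Mxd1, a repressor of the MYC network, had 0.65, and the inhibitory receptor gene Cd300lf had 0.57. Hp and Lrg1 are also made by liver cells. When Sora-treated tumor 2 or 4 was left out, 0 of the 6 were called in edgeR, and over the 6 such fits Lrg1 was called in 4, Hp in 3, Mxd1 and Hcar2 in 2 each, and G0s2 and Cd300lf in 1 each.

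Of the genes in this list that did not pass, Cd177, a surface protein of neutrophils, had the largest difference (log2 value 1.62, standard error 0.54, adjusted p = 0.14, edgeR) at 0.399 to 3.77 CPM, and DESeq2 called it. Il1b had 0.76 (adjusted p = 0.083, edgeR), with 64.5, 30.5, and 51.0 CPM in the Sora-treated tumors against 24.5 to 32.4 CPM in the control tumors. The decoy receptor gene Il1r2 had 0.62 (adjusted p = 0.056, edgeR), and its groups did not overlap. Slpi, a protease inhibitor, had 1.06 (adjusted p = 0.065, edgeR), likewise without overlap. DESeq2 called both, and 9 genes of the list in all. Ly6g, whose protein defines mouse neutrophils in flow cytometry, had 3 to 11 reads per tumor and was not tested.

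Of 13 further genes of granule proteins, 10 were tested, and Lcn2 was up-regulated in edgeR. Lcn2, an iron-binding protein of secondary granules that epithelia make as well, had 2.09, 2.27, and 2.25 CPM in the control tumors and 5.85, 5.36, and 4.2 CPM in the Sora-treated tumors. The groups were far apart (log2 fold change 1.22, standard error 0.22, adjusted p = 0.019, edgeR), and the call held in 2 of the 6 fits with 1 tumor left out. The list as a whole had a median log2 fold change of -0.19, with 2 genes above 0 and 8 below. At an unadjusted p under 0.05, 2 were higher and 1 lower in edgeR. Lyz2 and Mmp9, which macrophages also make, had log2 fold changes of -0.09 and -0.23. Cybb, the oxidase subunit shared with macrophages, had -0.44 (adjusted p = 0.078, edgeR) and was called lower by DESeq2. The primary granule genes Mpo and Elane had at most 4 and 11 reads in any tumor.

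**Figure D3:**
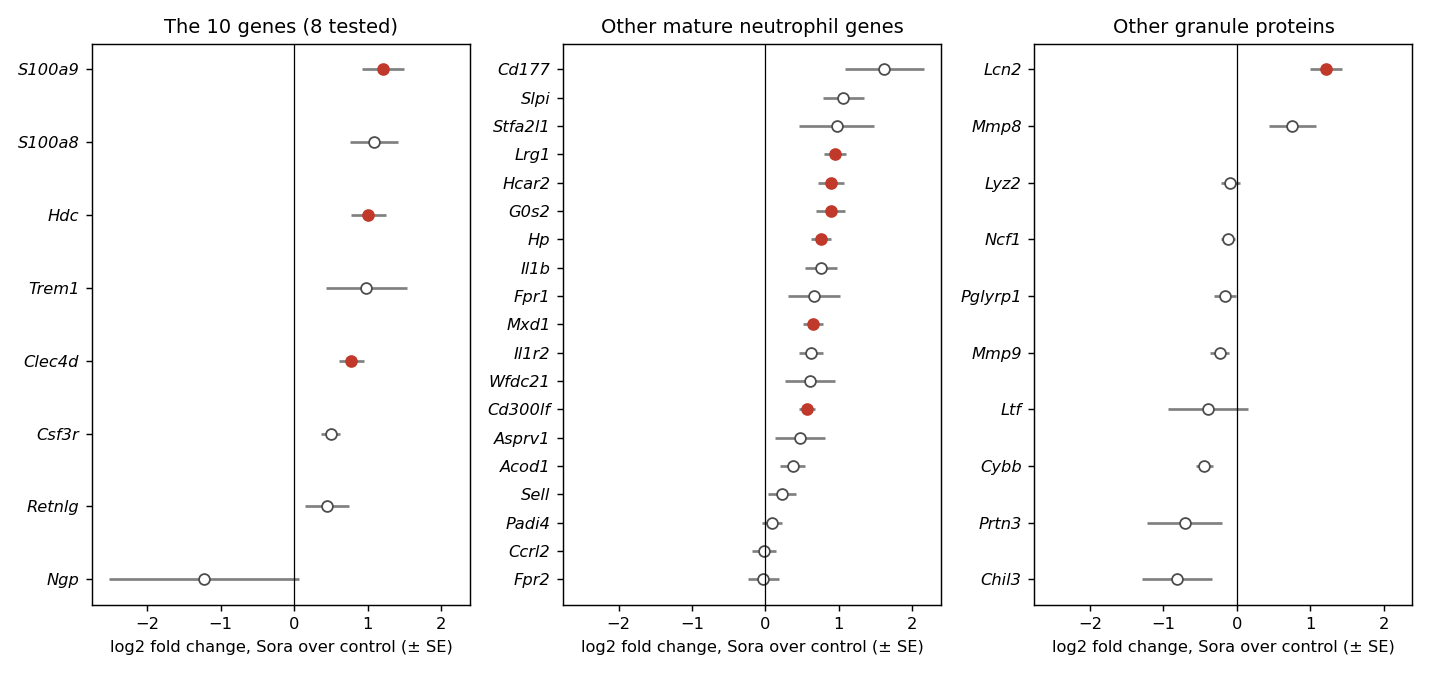
Log2 fold change (Sora-treated over control) with its standard error for the 8 tested genes of the 10, the 19 tested genes of the mature neutrophil list, and the 10 tested genes of the granule protein list, where filled red circles have an adjusted p under 0.05 in edgeR. Filled circles all lie above 0: S100a9, Hdc, and Clec4d on the left, 6 genes in the middle, and Lcn2 on the right.

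Several granule genes were highest in the same control tumor. With Ngp and Camp, 8 of 15 granule genes had their highest CPM in control tumor 3 (Ngp, Camp, Mpo, Elane, Ltf, Mmp9, Chil3, and Pglyrp1, named after their values were seen). The share of all genes that were highest in this tumor was not computed, so the count stands without a background. The place of Mpo rests on 4 reads. Chil3 had 89.8 CPM in control tumor 3 and 15.9 to 31.3 CPM in the other tumors. In that tumor S100a9 was the highest of the control tumors (14.7 CPM) but below every Sora-treated tumor, and S100a8 (6.57 CPM) was close to control tumor 1 (6.48 CPM).

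Genes of the partners of the 10 genes were examined with 7 lists of 61 genes: granulocyte transcription factors, receptors of S100A8/A9, signal transducers of the G-CSF receptor, partners of TREM1 and CLEC4D, myeloid growth factors with their receptors, inducers of G-CSF, and histamine genes. Of the 56 tested, 0 passed the threshold in edgeR in either direction, and 7 were higher and 6 lower at an unadjusted p under 0.05. DESeq2 called Jak2 and Socs3 higher and Fcer1g and Csf1r lower, and limma voom called 0. Socs3, a feedback inhibitor of the G-CSF receptor, had 102, 99.5, and 86.6 CPM in the control tumors and 152, 104, and 138 CPM in the Sora-treated tumors (log2 fold change 0.45, adjusted p = 0.08, edgeR). Its groups did not overlap, and Sora-treated tumor 3 was again next to the control tumors. Jak2, the kinase bound to that receptor, had a log2 fold change of 0.29 (adjusted p = 0.056, edgeR) with groups apart. Tyrobp, the adaptor of TREM1, had -0.16 and Fcer1g, the adaptor of CLEC4D, had -0.27 (adjusted p = 0.08, edgeR). Clec4e, the partner lectin of CLEC4D, had 0.68 (adjusted p = 0.2, edgeR). By list, the median log2 fold change ran from -0.10 for the partners of TREM1 and CLEC4D to 0.11 for the inducers of G-CSF, of which 5 were tested.

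Of 12 genes used to describe suppressor cells, 11 were tested and 0 passed in edgeR or limma voom, with 4 higher and 2 lower at an unadjusted p under 0.05. DESeq2 called 1 gene of the list higher and 2 lower, and the lower ones were Cd84 and Cybb. Nos2, the inducible nitric oxide synthase, had overlapping groups (log2 fold change -0.18).

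Markers of other cells that can express the 10 genes were summed in FPKM per tumor. The 10 keratinocyte markers summed to 963, 398, and 453 FPKM in the control tumors and 1000, 564, and 831 FPKM in the Sora-treated tumors. Of these markers, 10 of 10 had a log2 fold change above 0 and 0 passed in edgeR, DESeq2, or limma voom (0 at an unadjusted p under 0.05), and each had at least 56 reads in every tumor. The tumor with the highest sum, Sora-treated tumor 2, was also highest for S100a8 and S100a9. Control tumor 1 had nearly as high a sum, with 17.0 FPKM of S100a8 and 22.1 FPKM of S100a9. Among the Sora-treated tumors, the sums and both genes had the same order, with tumor 2 highest and tumor 3 lowest. Among the control tumors, S100a9 was highest in tumor 3, which had the lowest sum.

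The mast cell and basophil markers, which bear on Hdc, summed to 113 to 157 FPKM in the control tumors and 114 to 172 FPKM in the Sora-treated tumors. Of 7 tested markers, 0 passed in edgeR, DESeq2, or limma voom (0 at an unadjusted p under 0.05), and the basophil marker Mcpt8 had 3 to 10 reads per tumor. Macrophage markers summed to 1105 to 1326 FPKM and 914 to 1106 FPKM, with 9 of 9 below 0 (6 lower at an unadjusted p under 0.05). DESeq2 called 5 of them lower (Csf1r, C1qa, C1qb, C1qc, and Mertk), and in edgeR Mertk was down-regulated (log2 fold change -0.45, adjusted p = 0.031, edgeR, called in 1 of the 6 fits with 1 tumor left out). Monocyte markers summed to 106 to 165 FPKM and 97.0 to 121 FPKM, with 0 of 7 called in edgeR (1 higher and 3 lower at an unadjusted p under 0.05) and Ly6c2, Ccr2, and Vcan lower in DESeq2. Eosinophil markers summed to 75.1 to 142 FPKM and 46.6 to 82.8 FPKM, with Epx at 0 or 1 read, and 0 of 5 were called in edgeR, DESeq2, or limma voom (1 lower at an unadjusted p under 0.05). Of 7 tested blood and platelet markers, 6 were below 0, with a median log2 fold change of -1.12 and 5 lower at an unadjusted p under 0.05, and DESeq2 called Hba-a1, Hbb-bt, and Alas2 lower. Hba-a1 fell by 1.17 on the log2 scale (adjusted p = 0.031, edgeR, likewise called in 1 of the 6), and the summed level of blood and platelet markers was 134 to 286 FPKM in the control tumors and 117 to 136 FPKM in the Sora-treated tumors. Of the hepatoma markers Alb was down-regulated (log2 fold change -0.55, adjusted p = 0.041, edgeR) and Apoa1 up-regulated (1.03, adjusted p = 0.047, edgeR), and these calls held in 2 and 1 of the 6 fits. DESeq2 and limma voom also called Alb lower, and neither called Apoa1. Of 4 leukocyte genes 0 were called in edgeR (1 higher and 2 lower at an unadjusted p under 0.05), and DESeq2 called Ptprc lower. Among them, Ptprc and Itgam had log2 fold changes of -0.35 and 0.24 (adjusted p 0.11 and 0.13, edgeR). The part of keratinocytes in the higher S100a8 and S100a9 was not tested.

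**Figure D4:**
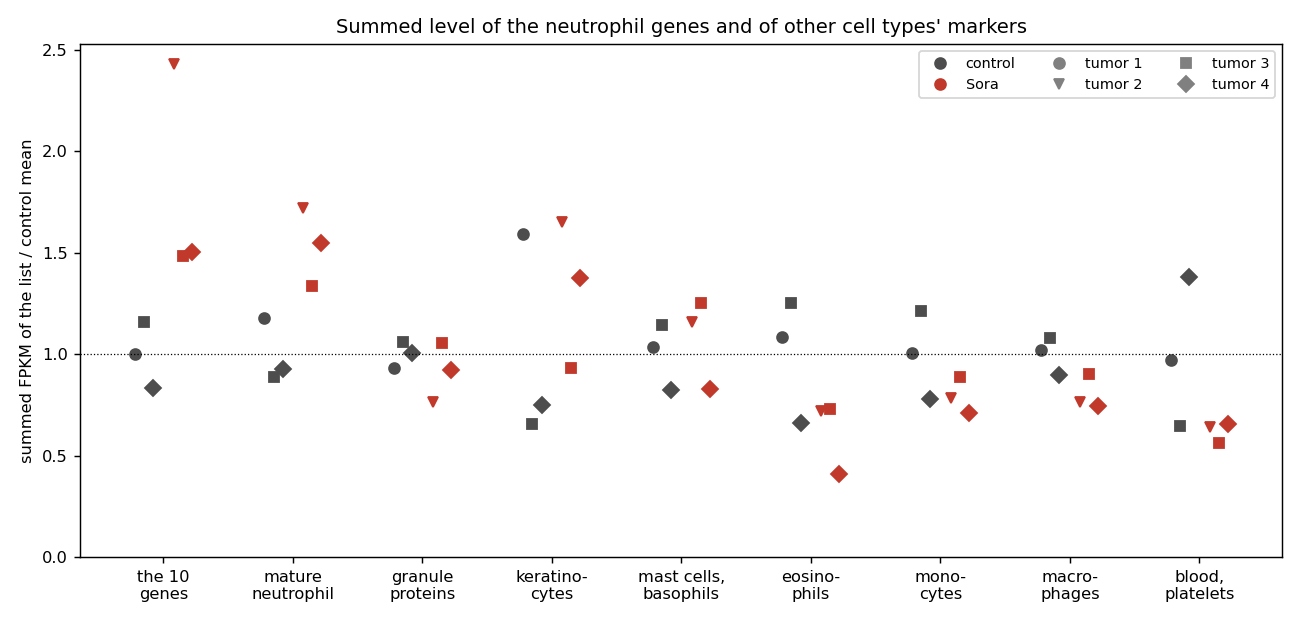
Summed FPKM of each gene list in each tumor, divided by the mean of the 3 control tumors (linear axis, dotted line at 1), where color gives the group and shape the tumor number. The 10 genes together are above the control tumors in every Sora-treated tumor (118 to 193 FPKM against 66.4 to 92.3). The sums of keratinocyte, mast cell, monocyte, and macrophage markers overlap between the groups, and those of monocytes and macrophages reach lower in Sora-treated tumors.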

How the data were processed

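RNA-seq was done on 6 Hepa1-6 tumors, 3 of each group, with 1 library per tumor. The authors deposited a table of counts, whole reads per gene without normalization, and FPKM for all 6 tumors, in which each count is scaled to the length of the gene and to the library's total. The paper's methods name Bowtie2 and GRCm38, whereas the submitters' processing notes name fastp, HISAT2, HTSeq, R 3.2.0, DESeq2, and GRCm39. The use of strand is not given in the sources used here. Coordinates and promoters are those of RefSeq on GRCm38.p6, matched by symbol.

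The count table holds 5 tumors. Counts of Sora-treated tumor 4 were recovered from its FPKM, with gene lengths given by the other tumors. Treated as unknown in turn, the 5 known tumors returned the deposited count of every gene with a known length (20969 to 21229 genes), and a further 460 to 556 genes per tumor (669 to 1023 reads) had none. In tumor 4, all 20951 values (100%) gave whole reads with a tolerance of 0.001, and 342 genes without a known length (512 reads, 0.0015%) were left at 0.

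Genes were tested if 3 or more tumors had 10 or more counts, using edgeR 4.0.16 (glmQLFit, glmQLFTest, TMM, robust=FALSE) in R 4.3.3, with an adjusted p threshold of 0.05. Standard errors were taken as the size of the log2 fold change over the root of edgeR's F. DESeq2 1.42.0 and limma 3.58.1 were alternatives. The scripts were tested on simulated data. Intervals and floors cover counting error only. The 10 genes and the 18 other lists were chosen with earlier results of these data known. Beside the 10 genes, the text names list genes that passed the threshold, abundant ones, and markers near 0; exceptions, such as list genes that missed the threshold, were named after their values were seen. Some single-gene results are not reported here. Sequencing batches are not given in the sources used here.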

Additional observations from a re-analysis of the deposited data

How the results depend on the processing

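Over the alternatives the number of the 10 genes called up-regulated, 3 in edgeR, was 1 with limma voom and with robust=TRUE, 5 without a filter on low counts, and 0 with each of the 3 limma fits on log2(FPKM + 1) or log2(FPKM + 0.1). It ranged from 0 to 5 with 1 tumor left out. The number over 2-fold, 2 in edgeR, was 1 with DESeq2 and with total counts, 0 with limma voom, robust=TRUE, and each limma fit on FPKM, and 0 to 3 with 1 tumor left out. Of the 18 other lists, 8 genes were up-regulated and 3 down-regulated, and these counts were 13 and 16 with DESeq2, 16 and 18 without a filter, 2 and 0 on log2(FPKM + 1), 1 and 0 on log2(FPKM + 0.1), and 0 and 0 on log2(FPKM + 1) of all genes. With 1 tumor left out they ranged from 0 to 17 and from 0 to 9. Of these, granule and mature neutrophil genes were up-regulated in 7 cases, 11 without a filter, 2, 1, and 0 in the 3 FPKM fits, and 0 to 9 with 1 tumor left out. The 0 that were down-regulated became 1 with DESeq2 and without a filter, and 0 to 1 with 1 tumor left out. With the replicate block the counts were 0 of the 8 tested genes at any fold, 0 over 2-fold, 5 and 2 genes of the other lists, and 1 granule or mature neutrophil gene. The deviations of same-numbered tumors correlated at -0.03 (number 3) and -0.07 (number 4). Those of control tumor 1 and Sora-treated tumor 2, which have no partner of their number, correlated at 0.26. These values cannot show whether tumors of the same number shared a batch. With 1 tumor left out, the log2 fold change of Retnlg ranged from -0.01 (without Sora-treated tumor 3, a reversal) to 0.73. By TMM-scaled CPM, which is not per length, 8 of the 10 genes took another place in the order of levels. Csf3, Camp, and Ly6g had too few reads to be tested, and Ngp ranged from 0 to 118 reads between tumors. The cause of these changes was not tested.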

Other observations

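The genes most like the 8 tested genes across tumors were sought among 14108 genes with a mean of at least 1 CPM. Each gene's log2(CPM + 1) was centered on its own mean over the 6 tumors and compared with the mean centered profile of the 8 genes, whose values were -0.29 for control tumor 1, -0.06 for control tumor 3, -0.49 for control tumor 4, 0.75 for Sora-treated tumor 2, -0.05 for Sora-treated tumor 3, and 0.14 for Sora-treated tumor 4. The smallest root mean square distances were those of Gm11723 (0.081), Aldh1a3 (0.101), Gm39985 (0.11), and Gm52186 (0.143). Aldh1a3, an enzyme of retinoic acid synthesis, had 4.86, 5.86, and 3.73 CPM in the control tumors and 9.02, 5.57, and 5.8 CPM in the Sora-treated tumors. Each gene was chosen for this likeness over 6 tumors, so the values are a description.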
